A study of Mus musculus with 8 samples.

Results

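The genes described here are 10 genes of the signalling between endocardium and myocardium that builds the trabeculae of the embryonic ventricle. They are the Notch receptor Notch1, its ligands Dll4 and Jag1, the Notch target genes Hey1 and Hey2, the growth factor Nrg1 with its receptors Erbb2 and Erbb4, the BMP ligand Bmp10, and the ephrin ligand Efnb2. They were taken by gene symbol, not by a cutoff on measured values, from a table of 52778 features. The choice was made with earlier results of these data known. All 10 were listed on their own chromosome and all 10 passed the filter on low values, a level of 1 TPM or more in 4 or more of the 8 libraries. Erbb4 had another row on an alternative sequence of its chromosome, which was listed at 0 in every library and was not used.

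Trabeculae are the muscular ridges that grow from the inner wall of the ventricle into its lumen. In the endocardium, which lines that wall, DLL4 binds and activates NOTCH1, and Notch activity there supports the transcription of Efnb2 and Nrg1. Neuregulin-1 leaves the endocardium and binds ERBB4 on cardiomyocytes, where ERBB4 pairs with ERBB2, a partner that binds no ligand of its own. BMP10 is a secreted factor of the trabecular myocardium that sustains the division of cardiomyocytes. HEY1 and HEY2 are transcriptional repressors downstream of Notch, and Hey2 is also a gene of the compact ventricular wall, where it is expressed in the muscle itself.

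The study sequenced RNA of the heart from C57BL/6 mouse embryos at embryonic day 11.5, in 4 control libraries and 4 mutant libraries. The design text names ventricular tissue, whereas the sample titles name only the heart. The mutant, Atf4(del7/del7), carries on both copies of Atf4 a deletion of 7 bases in exon 3, made with CRISPR/Cas9, which shifts the reading frame and is stated to remove the ATF4 protein in every tissue. The controls are labelled C57BL/6 WT with no engineered allele named, both groups received no treatment, and all samples have the same batch label. ATF4 is a transcription factor of the response to amino acid shortage. The labels give 4 biological replicates per genotype without saying whether a library is 1 embryo or a pool, and they give no litter or sex, so the p-values below measure only the spread between these libraries. The labels also contradict themselves: a field for genotype reads wild type in the mutants too, and the protocol of each sample describes cortical neurons in culture and depletion of ribosomal RNA, whereas the design text describes ventricular heart tissue and a stranded poly(A) kit.

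Levels were deposited as TPM, a share of all transcripts that is divided by transcript length and can therefore be compared between genes. The listed features summed to 923473 to 949762 TPM per library, and 15380 to 15584 features reached 1 TPM. Read depth cannot be recovered from TPM, and the error given below is the spread between libraries. The tissue label was checked against marker genes: Myl2, a light chain of ventricular muscle, lay between 10631.2 and 11978.7 TPM in the 8 libraries, and Cdh5, the adhesion protein of endothelium, between 116.3 and 150.3 TPM, so both of the tissues that exchange these signals were in the samples. The 8 atrial markers were uneven. The myosin light chain Myl7 lay at 3186.5 to 3848.7 TPM and Dkk3 at 66.2 to 79.8 TPM. Sln averaged 0.425 TPM in controls and 0.284 TPM in mutants, and Vsnl1 0.873 and 0.826 TPM. These levels do not tell how much atrial tissue the samples held. Of the other markers, 5 of 9 neural markers and 7 of 8 liver markers averaged less than 1 TPM. Atf4 itself was at 105.3, 121.5, 114.8 and 104.6 TPM in controls and at 166.1, 164.0, 185.1 and 148.2 TPM in mutants (log2 fold change 0.57, limma adjusted p = 0.043). A transcript that lacks 7 bases is still counted, so this level does not check the loss of the protein. In a list of 20 known ATF4 target genes, 16 passed the filter, all 16 were lower in mutants and 5 passed the threshold, where 0.0386% of all 15545 features did. Phgdh, the entry enzyme of serine synthesis, was among them (61.2 ± 1.9 TPM in controls and 44.1 ± 1.93 TPM in mutants, SD, n = 4 per group, adjusted p = 0.00883). That list was chosen with results of these libraries known, and with control replicate 2, 3 or 4 left out no feature of the table passed the threshold.

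Against this background the trabeculation genes differed little between genotypes. None of the 10 passed an adjusted p of 0.05 in limma, where 0.0386% of features did, and 1 of 10, Bmp10, had an unadjusted p below 0.05, where 6.10% of features did. Bmp10 was also the 1 gene of 10 whose control and mutant values did not overlap, a separation found for 3.68% of features. Of the 10 genes 5 had a higher mean and 5 a lower mean of log2(TPM + 1) in mutants. Their median log2 fold change was -0.0031, beside -0.0033 for all 15545 features, and 8 of 10 lay within 0.1 of 0. All fold changes here are differences of the mean log2(TPM + 1), mutant minus control, from 1 linear model over all features, with p-values adjusted over all of them by the Benjamini-Hochberg method.

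**Figure D1:**
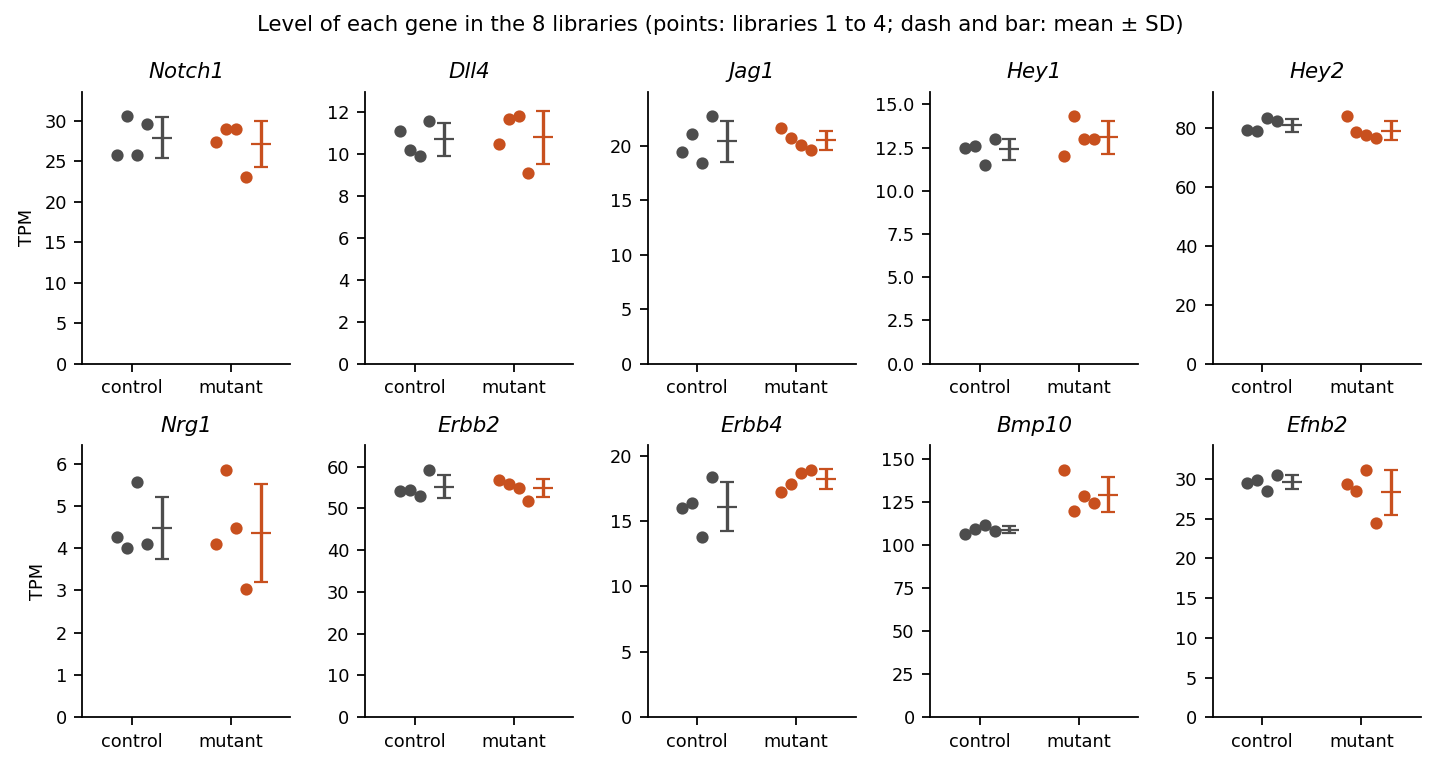
Level of each of the 10 genes in TPM (vertical axis, starting at 0) in the control (grey) and mutant (orange) libraries, with 1 point per library from 1 to 4 and the mean ± SD beside them. The 4 mutant values of Bmp10, from 120.1 to 143.6, all lie above the highest control value of 111.7, and the groups overlap in the other 9 panels.

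Bmp10, the ligand with the highest level of the 10 genes, showed the most separation between the genotypes. It was at 106.7, 109.4, 111.7 and 108.4 TPM in controls and at 143.6, 120.1, 128.4 and 124.7 TPM in mutants. Every mutant library was above every control library, with a gap of 8.4 TPM between the highest control and the lowest mutant. The means were 109.0 ± 2.09 TPM and 129.2 ± 10.2 TPM (SD, n = 4 per group), and the controls lay much closer to each other than the mutants did. The log2 fold change was 0.24 (standard error 0.052, 95% interval 0.12 to 0.36), which is 1.18-fold on the scale of TPM + 1. Its unadjusted p in limma was 0.00108, which put it at rank 30 of 15545 features, and its adjusted p was 0.549, so the difference did not pass the threshold. Without mutant replicate 1, the highest library, the log2 fold change was 0.19 (adjusted p = 0.333).

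Bmp10 lies on chromosome 6 from 87428994 to 87434512 on the forward strand of GRCm38, and the table lists nothing else within that span. Its promoter is shown because Bmp10 is the gene whose groups separated. A set of 3 short motifs was searched on both strands of the 250 bases before each start, in the 8 of 10 genes that the RefSeq promoter table of GRCm38.p6 holds: TGGGAA, the core bound by the Notch effector RBPJ, AGATAA, bound by GATA factors, and TGATGNAA, the composite element bound by ATF4 with C/EBP partners. Hey1 and Nrg1 are not held there and were not searched. For Erbb4 the bases searched, 69108060 to 69108309, lie inside its listed span of 68031884 to 69108576 and not before it. The capitals mark TGGGAA and AGATAA, which share a base where they meet, and a later AGATAA nearer to the start, in chr6:87428744-87428993.
Bmp10: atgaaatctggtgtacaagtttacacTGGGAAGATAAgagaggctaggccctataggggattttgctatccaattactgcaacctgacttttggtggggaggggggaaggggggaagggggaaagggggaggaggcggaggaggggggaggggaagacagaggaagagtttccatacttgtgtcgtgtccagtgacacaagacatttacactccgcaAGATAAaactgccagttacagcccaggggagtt
The match to TGGGAA stands at -224 to -219, counted from the start with -1 as the base before it, and the matches to AGATAA at -219 to -214 and at -33 to -28. AGATAA was found in 1 of the 8 promoters, this one, and in 9.99% of all 32851 promoters of the table. TGATGNAA was found in 0 of the 8 and in 3.45% of all promoters. These are matches of letters and not measured sites.

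Of the Notch ligands, neither passed the threshold. Dll4, the endothelial Notch ligand, was at 11.1, 10.2, 9.92 and 11.6 TPM in controls and at 10.5, 11.7, 11.8 and 9.1 TPM in mutants. Mutant replicate 4 was the lowest of the 8 libraries and mutant replicate 3 the highest, so the mutant range enclosed that of the controls. The means were 10.7 ± 0.779 and 10.8 ± 1.25 TPM (SD, n = 4 per group), with a log2 fold change of 0.0031 (95% interval -0.19 to 0.20, limma adjusted p = 0.998). Jag1, the ligand that endocardium and other cells of the heart present to Notch, was at 19.4, 21.1, 18.4 and 22.7 TPM in controls and at 21.6, 20.7, 20.1 and 19.6 TPM in mutants. The mutant values of Jag1 all lay inside the control range, and the log2 fold change was 0.010 (95% interval -0.14 to 0.16, limma adjusted p = 0.995). Both genes lie on chromosome 2 of GRCm38, Dll4 from 119325784 to 119335666 on the plus strand and Jag1 from 137081451 to 137116520 on the minus strand. Jag1 exceeded Dll4 by similar ratios of TPM in the genotypes, 1.91 ± 0.137 in controls and 1.92 ± 0.219 in mutants (SD, n = 4 per group).

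Nrg1, the neuregulin gene, had the lowest level and the widest spread of the 10. It was at 4.26, 4.01, 5.56 and 4.10 TPM in controls and at 4.09, 5.85, 4.49 and 3.04 TPM in mutants. Control replicate 3 and mutant replicate 2 were high and mutant replicate 4 was low, and the groups overlapped. The means were 4.48 ± 0.724 and 4.37 ± 1.16 TPM (SD, n = 4 per group), and the 95% interval of the log2 fold change of -0.05 ran from -0.40 to 0.31 (limma adjusted p = 0.985). That interval includes differences larger than the one measured for Bmp10. Nrg1 spans 1084.2 kb of chromosome 8, from 31807452 to 32891609 on the minus strand, and 9 other features lie within that span. The pseudogene Gm46076, on the same strand, was listed at 23.4 TPM in controls and 23.6 TPM in mutants on average, above Nrg1 itself, and how reads were divided between overlapping features is not given in the sources used here.

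Efnb2, which encodes the ephrin-B2 ligand of endocardium and arterial endothelium, was at 29.5, 29.8, 28.5 and 30.5 TPM in controls and at 29.4, 28.5, 31.1 and 24.4 TPM in mutants. Of the mutants, 3 lay at the level of the controls or just outside it and replicate 4 lay below all other libraries. The means were 29.6 ± 0.828 and 28.3 ± 2.83 TPM (SD, n = 4 per group), with a log2 fold change of -0.06 (95% interval -0.22 to 0.09, limma adjusted p = 0.931). Without mutant replicate 4 it was 0.0029. Efnb2 lies on chromosome 8 from 8617235 to 8661242 on the minus strand, and no other listed feature overlaps it.

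Of the 3 receptors, Erbb4 had the largest difference in means. Erbb4, the receptor that binds neuregulin on cardiomyocytes, was at 16.0, 16.4, 13.8 and 18.4 TPM in controls and at 17.2, 17.8, 18.7 and 18.9 TPM in mutants. Control replicate 3 was the lowest library, and control replicate 4 lay within the range of the mutants, so the groups overlapped. The means were 16.1 ± 1.88 and 18.2 ± 0.785 TPM (SD, n = 4 per group), with a log2 fold change of 0.17 (standard error 0.079, 95% interval -0.01 to 0.34, limma unadjusted p = 0.0639, adjusted p = 0.840). Erbb4 spans 1076.7 kb of chromosome 1, from 68031884 to 69108576 on the minus strand. Leaving out 1 library at a time gave log2 fold changes from 0.10 without control replicate 3 to 0.23 without control replicate 4.

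Erbb2, the partner of ERBB4, had similar means in both genotypes. It was at 54.3, 54.4, 53.0 and 59.2 TPM in controls and at 56.9, 55.8, 54.8 and 51.9 TPM in mutants. The groups overlapped, with control replicate 4 the highest library and mutant replicate 4 the lowest, and the log2 fold change was -0.0092 (95% interval -0.11 to 0.09, limma adjusted p = 0.992). The level of Erbb2 was above that of Erbb4 in every library, by 3.44 ± 0.277 times in controls and 3.03 ± 0.243 times in mutants (SD, n = 4 per group). The ratios of the genotypes overlapped, from 3.22 to 3.84 in controls and from 2.74 to 3.30 in mutants. Erbb2, on chromosome 11 from 98412484 to 98437716 on the plus strand, overlaps Mien1, a gene of the opposite strand that was listed at 60.1 TPM in controls and 59.1 TPM in mutants on average, and whether reads were counted by strand is not given in the sources used here.

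Notch1, the receptor of the endocardium, was at 25.7, 30.5, 25.7 and 29.6 TPM in controls and at 27.3, 29.0, 29.0 and 23.0 TPM in mutants. Of the mutants, 3 lay within the control range and replicate 4 lay below it. The means were 27.9 ± 2.56 and 27.1 ± 2.84 TPM (SD, n = 4 per group), with a log2 fold change of -0.04 (95% interval -0.24 to 0.15, limma adjusted p = 0.970). Without mutant replicate 4 it was 0.03. Notch1 lies on chromosome 2 from 26457902 to 26503822 on the minus strand.

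The 2 target genes of Notch stood at quite different levels, as Hey2 was 6.55 ± 0.46 times as high as Hey1 in controls and 6.10 ± 0.643 times in mutants (ratio of TPM, SD, n = 4 per group). Hey1 was at 12.5, 12.6, 11.5 and 13.0 TPM in controls and at 12.0, 14.3, 13.0 and 13.0 TPM in mutants. The groups overlapped, with mutant replicate 2 the highest library, and the log2 fold change was 0.07 (95% interval -0.08 to 0.21, limma adjusted p = 0.929). Hey2 was at 79.4, 78.9, 83.5 and 82.4 TPM in controls and at 84.0, 78.8, 77.6 and 76.6 TPM in mutants. Mutant replicate 1 was the highest library and the other 3 mutants were the lowest, so the groups overlapped. The means of Hey2 were 81.0 ± 2.29 and 79.2 ± 3.29 TPM (SD, n = 4 per group), with a log2 fold change of -0.03 (95% interval -0.12 to 0.05, limma adjusted p = 0.942), the narrowest interval among the 10 genes. Hey1 lies on chromosome 3 from 8663359 to 8667038 and Hey2 on chromosome 10 from 30832359 to 30842783, both on the minus strand. Hey2 overlaps Gm51763, a long noncoding RNA of the opposite strand listed at 8.52 TPM in controls and 8.02 TPM in mutants on average.

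The promoter of Hey2 is shown because Hey2 is a Notch target and, beside Bmp10, the other gene of the 8 searched that holds TGGGAA. The capitals mark that match, which lies on the opposite strand and so reads TTCCCA, at -207 to -202 from the start, in chr10:30842784-30843033 on the minus strand of GRCm38.
Hey2: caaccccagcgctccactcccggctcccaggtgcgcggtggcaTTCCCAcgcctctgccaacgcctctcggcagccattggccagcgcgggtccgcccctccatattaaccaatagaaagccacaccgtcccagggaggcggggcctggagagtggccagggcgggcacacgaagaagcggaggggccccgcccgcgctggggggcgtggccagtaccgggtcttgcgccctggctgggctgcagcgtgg
TGGGAA was thus found in 2 of 8 promoters, and in 21.6% of the 32851 promoters of the table. The bases before Hey2 were 71.6% G or C, and those before Bmp10 were 52.0%.

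**Figure D2:**
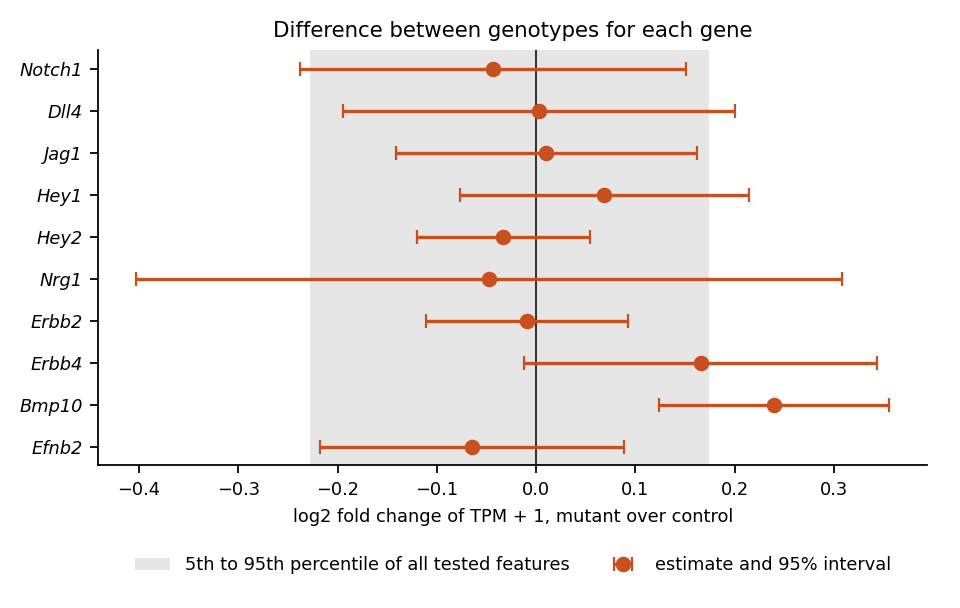
Log2 fold change of TPM + 1 (horizontal axis, mutant over control) for each of the 10 genes, as a point with its 95% interval, over a grey band from the 5th to the 95th percentile of all 15545 tested features, -0.23 to 0.17. The point of Bmp10 (0.24) lies to the right of the band and the other 9 points lie within it.

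By mean over all libraries the order was Bmp10, Hey2, Erbb2, Efnb2, Notch1, Jag1, Erbb4, Hey1, Dll4 and Nrg1. The ranges over all 8 libraries did not overlap between Bmp10 and Hey2, Hey2 and Erbb2, Erbb2 and Efnb2, Notch1 and Jag1, or Dll4 and Nrg1. The ranges of Efnb2 and Notch1, of Jag1 and Erbb4, of Erbb4 and Hey1 and of Hey1 and Dll4 overlapped, although those of Erbb4 and Hey1 did not overlap among the controls alone. Within single libraries the order of neighbours held in all 8 libraries for every pair except Efnb2 and Notch1, whose ratio ran from 0.975 to 1.15. The ratio of Jag1 to Erbb4 ran from 1.03 to 1.33, that of Erbb4 to Hey1 from 1.20 to 1.46 and that of Hey1 to Dll4 from 1.1 to 1.43. Bmp10 was 1.32 to 1.71 times as high as Hey2 in single libraries. At the low end Dll4 was 1.78 to 2.99 times as high as Nrg1. The genes also differed in how far replicates spread: the coefficient of variation in controls was 1.92% for Bmp10 and 2.83% for Hey2 but 16.1% for Nrg1, and 5 of the 10 genes had a residual SD below the median of all features, 0.103 on the log2 scale.

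Several of the genes had their lowest value in mutant replicate 4, the library with the fewest features at 1 TPM or more (15380). The share of all features with their lowest value in that library was not counted, so the pattern cannot be called particular to these genes. In mutant replicate 4, the departure of log2(TPM + 1) from the mean of the mutant group was -0.221 for Notch1, -0.214 for Dll4, -0.203 for Efnb2 and -0.385 for Nrg1, and each of these 4 genes had its lowest value of the 8 libraries there. The mean of 16 endothelial markers departed by -0.045 in the same library, a smaller departure than that of any of the 4 genes. Erbb2 and Hey2 also had their lowest value there, with smaller departures of -0.077 and -0.047. The other 4 genes did not, with departures of -0.061 for Jag1, -0.007 for Hey1, 0.058 for Erbb4 and -0.047 for Bmp10. In control replicate 3, Nrg1 departed by 0.267 from the control mean, Erbb4 by -0.207 and Jag1 by -0.14.

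**Figure D3:**
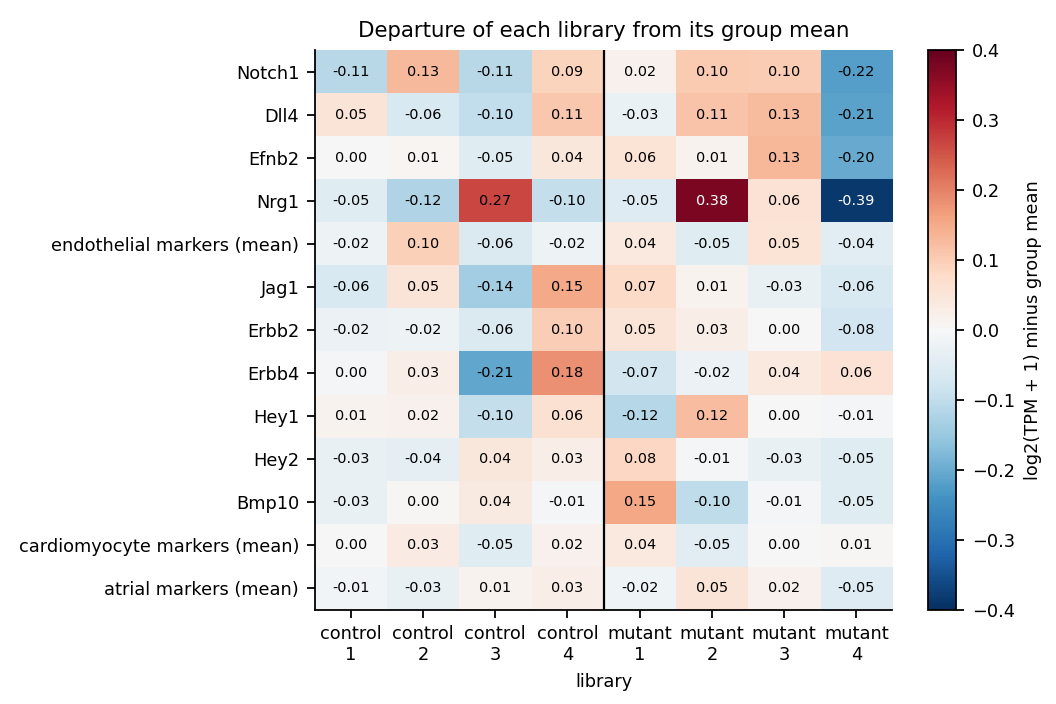
Departure of each library (columns) from the mean of its own group in log2(TPM + 1), for the 10 genes and the mean of 3 marker lists (rows), coloured from blue (below) to red (above) with the value printed. The column of mutant replicate 4 holds -0.22, -0.21, -0.20 and -0.39 for Notch1, Dll4, Efnb2 and Nrg1. It holds -0.04 for the mean of the endothelial markers, and such a mean tends to vary less than a single gene.

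In tissue RNA, fewer cells of a type and less RNA per cell cannot be told apart, so 8 of the genes were also expressed relative to markers of the cells that make them. The mean log2(TPM + 1) of 16 endothelial markers differed by -0.02 between mutants and controls, and that of 14 ventricular cardiomyocyte markers by -0.0053, and neither had an exact two-sided permutation p below 0.05 (0.657 for the endothelial list). Relative to the cardiomyocyte markers, Bmp10 was 0.245 higher in mutants (exact permutation p = 0.0286, the smallest that 70 assignments of 4 against 4 libraries can give), with an adjusted p of 0.229 over the 8 genes. Relative to the same markers Erbb4 was 0.171 higher (exact permutation p = 0.0571, adjusted p = 0.229). The other 6 genes differed by -0.0429 to 0.025, each with an adjusted p of 0.943. Bmp10 is also a gene of atrial muscle, so it was set against 8 atrial markers, a comparison added after the data were seen. The atrial markers differed by -0.0082, and Bmp10 relative to them was 0.248 higher in mutants (exact permutation p = 0.0286, not adjusted). Bmp10 was taken up here after its groups had separated, and the atrial markers hardly differed. That p therefore repeats the separation of Bmp10 and adds no separate evidence.

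Markers of other cells were less even. All 8 tested macrophage markers of 10 had lower means in mutants and the list mean differed by -0.465 (exact permutation p = 0.0571, adjusted p = 0.571 over 10 lists), with summed levels of 13.8 to 27.4 TPM in controls and 7.94 to 15.5 TPM in mutants. Many of these levels were low. Ptprc and Adgre1 were below 1 TPM in every library, and C1qa, Mrc1 and Cx3cr1 averaged 0.878, 0.946 and 0.58 TPM in mutants. The erythroid list differed by -0.29 (exact permutation p = 0.2), with sums of 4689.5 to 7994.9 TPM in controls and 4378.7 to 6095.2 TPM in mutants. Their part in the differences of the trabeculation genes was not tested.

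Other genes of the same pathways were taken in 5 lists of 149 genes, of which 131 were tested. Their log2 fold changes ran from -0.53 in the BMP list to 0.35 in the ephrin-B list. None of the 131 passed the adjusted threshold in limma, the lowest adjusted p was 0.78, and 10 of 131, or 7.63%, had an unadjusted p below 0.05 beside 6.10% of all features. The values of 1 gene, or 0.763%, did not overlap between groups, beside 3.68% of all features. In the Notch list 35 of 40 genes were tested, 17 with higher and 18 with lower means in mutants, and the median log2 fold change was -0.0066. The gene without overlap was Dtx4, a Deltex regulator of Notch, at 1.37, 1.43, 1.54 and 1.5 TPM in controls and 1.14, 1.08, 0.968 and 0.963 TPM in mutants (log2 fold change -0.27, unadjusted p = 0.0162, adjusted p = 0.78). Mfng, a glycosyltransferase that modifies Notch receptors, was at 4.49 ± 0.148 and 3.12 ± 1.19 TPM (adjusted p = 0.809), and its lowest library, at 1.5 TPM, was mutant replicate 4, as it was for the coactivator Maml2 at 4.41 TPM. Of genes that Notch activity is known to induce, named after their values were seen, Hes1 averaged 27.2 and 27.7 TPM, Nrarp 10.7 and 11.0 TPM and Heyl 3.01 and 2.73 TPM in controls and mutants, and none passed the threshold.

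In the neuregulin and ErbB list 19 of 26 genes were tested, 13 with higher and 6 with lower means in mutants, with a median log2 fold change of 0.03 and none past the threshold. The smallest unadjusted p there was that of Yap1, the coactivator of the Hippo pathway, at 87.2 ± 4.53 and 93.9 ± 3.24 TPM (SD, n = 4 per group, unadjusted p = 0.0366, limma adjusted p = 0.809). Egfr, which like Erbb4 encodes a ligand-binding receptor of the ErbB family, was at 1.81 ± 0.271 and 2.26 ± 0.439 TPM (limma adjusted p = 0.861). Erbb3, named after its values were seen, averaged 8.63 and 8.62 TPM.

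In the BMP list 30 of 33 genes were tested, 15 with higher and 15 with lower means, none past the threshold, and the median was 0.0014. Bmp5, another BMP ligand of myocardium, was at 20.0, 19.3, 19.0 and 20.5 TPM in controls and at 20.4, 24.5, 22.5 and 24.1 TPM in mutants. Only mutant replicate 1, the library in which Bmp10 was highest, lay within the control range of Bmp5 (log2 fold change 0.20, unadjusted p = 0.00911, limma adjusted p = 0.78). Smad6, an inhibitory SMAD that BMP signals induce, was at 44.5 ± 3.36 and 49.5 ± 1.29 TPM (SD, n = 4 per group, unadjusted p = 0.0156, limma adjusted p = 0.78). Of the Id genes, which are also known to respond to BMP signals and of which Id1 to Id3 were named after their values were seen, Id1 averaged 76.6 and 79.0 TPM, Id2 224.8 and 228.2 TPM, Id3 166.5 and 163.2 TPM and Id4 2.45 and 2.03 TPM in controls and mutants, and none passed the threshold. Cdkn1c, the cell cycle inhibitor that BMP10 is known to hold down in trabecular muscle and also named after its values were seen, averaged 1516.7 TPM in controls and 1534.2 TPM in mutants. Bmpr1b, a type I receptor, was listed at 0.1 and 0.0936 TPM in mutant replicates 3 and 4 and at 1.58 to 2.85 TPM in the other 6 libraries.

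In the ephrin-B list 14 of 16 genes were tested, 7 with higher and 7 with lower means, none past the threshold, and the median was -0.0038. Dab2, an endocytic adaptor, had the smallest unadjusted p there, at 40.9 ± 1.7 and 36.5 ± 2.78 TPM (SD, n = 4 per group, unadjusted p = 0.0193, limma adjusted p = 0.792). Ephb4, the receptor of ephrin-B2 and named after its values were seen, averaged 62.2 and 61.3 TPM.

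In the list of other trabecular genes 33 of 34 were tested, 18 with higher and 15 with lower means, none past the threshold, and the median was 0.0056. The 4 genes with an unadjusted p below 0.05 were Nkx2-5, Hand1, Nppb and Flrt2. The cardiac transcription factor Nkx2-5 was at 126.4 ± 4.21 and 136.8 ± 5.4 TPM (SD, n = 4 per group, unadjusted p = 0.0163, limma adjusted p = 0.78). Hand1, a transcription factor of the left ventricle and its trabeculae, was at 56.3 ± 1.54 and 61.8 ± 4.46 TPM (SD, n = 4 per group, unadjusted p = 0.0313, limma adjusted p = 0.809). The natriuretic peptide gene Nppb, which trabecular muscle expresses, was at 361.4 ± 40.3 and 411.5 ± 34.6 TPM (SD, n = 4 per group, unadjusted p = 0.0461, limma adjusted p = 0.81). Its relative Nppa, named after its values were seen, averaged 2932.7 and 3187.9 TPM with SDs of 446.6 and 451.1. Flrt2, which encodes an adhesion protein, was at 27.8 ± 2.79 and 24.1 ± 2.43 TPM (SD, n = 4 per group, unadjusted p = 0.0495, limma adjusted p = 0.818).

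**Figure D4:**
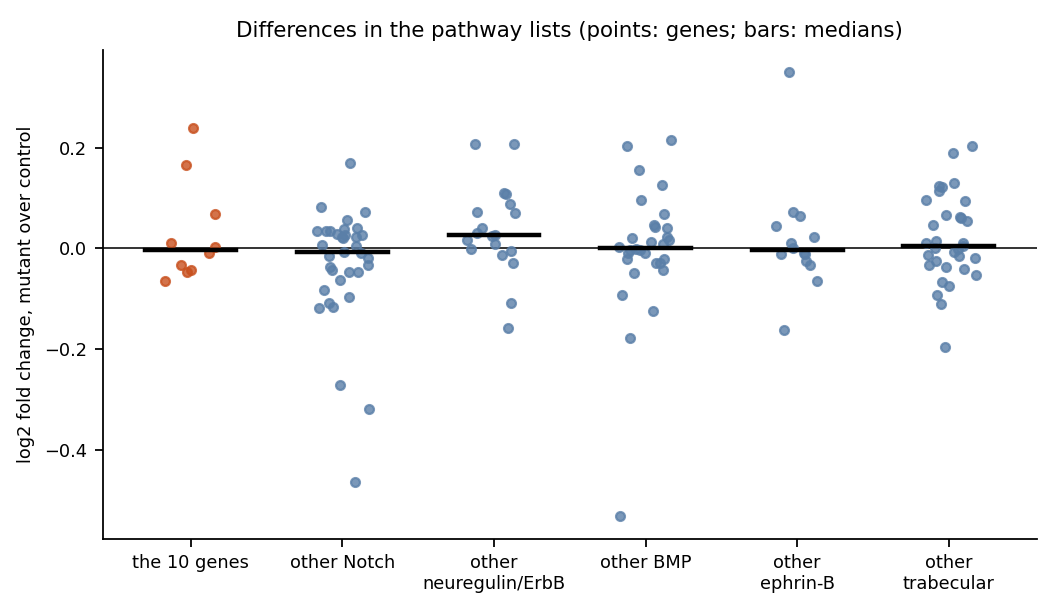
Log2 fold change, mutant over control (vertical axis), of the 10 genes and of the tested genes of 5 pathway lists, with 1 point per gene and a bar at each median. The medians lie between -0.0066 and 0.03, and none of the 131 list genes passed the adjusted threshold.

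The direction of 6 of the 10 differences depended on the setting. Over 19 other settings of scaling, filter, model or libraries, the log2 fold changes of Bmp10, Erbb4 and Hey1 stayed above 0 and that of Hey2 stayed below 0, while those of Notch1, Dll4, Jag1, Nrg1, Erbb2 and Efnb2 crossed 0 at least once. Bmp10 ranged from 0.19 to 0.27, with adjusted p from 0.333 to 0.83.

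**Figure D5:**
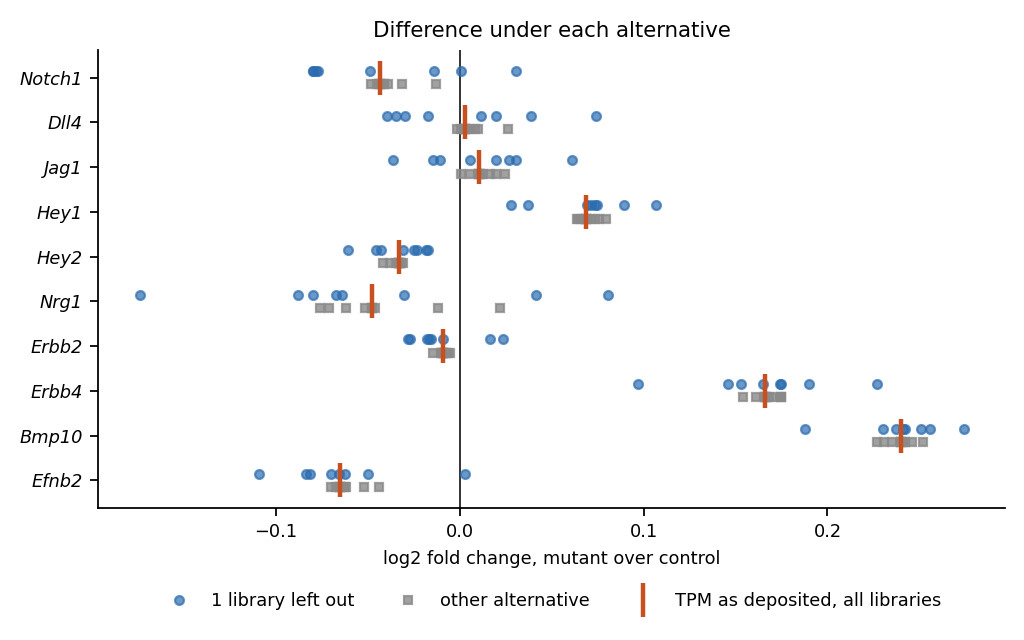
Log2 fold change, mutant over control (horizontal axis), of each gene as deposited with all libraries (orange bar), with 1 library left out (blue points) and under the other alternatives (grey squares). The values of Bmp10 lie between 0.19 and 0.27 and those of Nrg1 between -0.17 and 0.08.

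Across the 8 libraries, each gene was also compared in pattern with 11618 features of at least 5 TPM, by Pearson's r of log2(TPM + 1), as a description over few libraries that share their scaling. The r was taken over both genotypes, so it includes any difference between them. The r that the best of 11618 unrelated features would reach over 8 libraries was not computed. The values below therefore do not show that the genes are related. The nearest to Bmp10 were Tfam, a factor of mitochondrial DNA (r = 0.956), and Ube2l3 (r = 0.954). The nearest to Erbb4 were the sarcomere gene Ttn (r = 0.974) and Mtdh (r = 0.959). Notch1 was nearest to Man2a2 (r = 0.971) and Kansl3 (r = 0.970), and Efnb2 to Mier3 (r = 0.980) and Tulp4 (r = 0.975). Dll4 was nearest to Gm15725 (r = 0.981) and Mir3063 (r = 0.951), and Jag1 to Pgm5 (r = 0.971) and the tight junction gene Tjp1 (r = 0.960). Hey1 was nearest to Rn18s-rs5 (r = 0.969), a feature that resembles ribosomal RNA, and Lars2 (r = 0.954), and Hey2 to Arl5b (r = 0.943) and Ppp1r16a (r = 0.926). Nrg1 was nearest to the pseudogene Nutf2-ps1 (r = 0.964) and Zfp579 (r = 0.952), and Erbb2 to the kinase gene Grk2 (r = 0.983) and Dpp9 (r = 0.977). Each gene was nearest to features that no other of the 10 shared.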

How the data were processed

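RNA was measured in 4 control and 4 mutant libraries, grouped by sample title. The authors deposited TPM in 1 table. Per the submitters' processing notes, FastQC, Trim Galore 0.6.7, HISAT2 2.2.1, StringTie 2.2.1, featureCounts and DESeq2 were used on GRCm38/mm10. Their roles, the annotation and the strand setting are not given in the sources used here, and TPM keeps no read depth. The ends of all 10 genes equal those of RefSeq on GRCm38.p6, counted from 1.

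Values were analysed as log2(TPM + 1) in limma 3.58.1 (R 4.3.3) with variances that follow mean expression and no covariate, over 15545 features with at least 1 TPM in at least 4 libraries. Two-sided p-values were adjusted by Benjamini-Hochberg at 0.05. The fit was also run on simulated data that held no effect shared within a library. The simulated shifts were larger than any difference among the 10 genes, so no result here rests on that run. Marker lists were compared by exact permutation over 70 assignments. Python 3.11.15, pandas 2.3.3, numpy 2.4.6 and matplotlib 3.10.9 were used. The genes and lists were chosen with earlier results of these data known. Named are the 10 genes, Atf4, up to 3 of its targets, up to 6 genes per pathway list by unadjusted p, and the 2 nearest patterns per gene. The list symbols Hes4 and Grb4 found no match. The check for libraries that stand apart leaves out 1 named pathway gene, which is not reported here. Alternatives were another pseudocount, 2 filters, 3 scalings, weights per library, no variance trend, 2 marker covariates, the replicate number as a block, and each library left out.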

Additional observations from a re-analysis of the deposited data

Results flagged for a closer look

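In 3 of 114 groups of 4 libraries a library stood apart from the other 3 by Dixon's test, where chance at 5% would give 5.7. The level of Nrg1 in control replicate 3 was 5.56 TPM, beside 4.01 to 4.26 TPM in the other controls. Bmp10 relative to the cardiomyocyte markers was -3.40 on the log2 scale in control replicate 3, beside -3.52 to -3.51 in the other controls, and lay on the side of the mutants. Ephb3, an ephrin-B receptor, was at 27.5 TPM in control replicate 3, beside 31.7 to 32.3 TPM in the other controls.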

How the results depend on the processing

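None of the 10 genes and none of the pathway genes passed the threshold under any of the 19 alternatives run. Over all features, 6 passed, and 0 did without a filter, without the variance trend or with the replicate block, 3 with the endothelial covariate, 2 with the cardiomyocyte covariate and 0 to 3 with 1 library left out, and the cause was not tested. No pairing by replicate number was detected. Correlations of deviations ran from -0.0823 to 0.0351 for the same number and from -0.0535 to 0.0572 for different numbers. Whether a number marks a litter or batch is not known. With the replicate block Bmp10 was 0.24 with an adjusted p of 0.805. The direction reversed for Dll4 at -0.00161 (TPM rescaled without mitochondrial and haemoglobin genes), for Nrg1 at 0.0222 (weights per library), and under quantile normalization for Nrg1 relative to its markers at 0.0138 and for the cardiomyocyte, atrial and neural marker lists at 0.00726, 0.0207 and 0.00441. Leaving out 1 library in turn gave -0.0799 to 0.0305 for Notch1, -0.0395 to 0.0744 for Dll4, -0.0361 to 0.0609 for Jag1, -0.174 to 0.0808 for Nrg1, -0.0281 to 0.0237 for Erbb2, -0.109 to 0.00288 for Efnb2 and -0.0521 to 0.126 for Rasa1, the 1 reversal among 30 named pathway genes. Relative to markers it gave -0.0718 to 0.0374 for Notch1, -0.0285 to 0.0813 for Dll4, -0.167 to 0.0877 for Nrg1, -0.0719 to 0.00975 for Efnb2, -0.0278 to 0.0237 for Erbb2 and -0.0513 to 0.00262 for Hey2. For marker lists it gave -0.0408 to 0.00974 for endothelial, -0.0209 to 0.0101 for cardiomyocyte, -0.0253 to 0.00937 for atrial, -0.0623 to 0.0214 for mesenchyme and -0.000388 to 0.0572 for hepatic markers. Bmp10 relative to atrial markers, the comparison added after the data were seen, stayed between 0.191 and 0.313, with unadjusted exact permutation p of 0.0286 or 0.0571. Nrg1 was not tested under the filter at 5 TPM. Without read depth, counting error cannot be told apart from the spread between libraries.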
